A study of Homo sapiens with 12 samples.

Results

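The HOX cluster genes were taken as the gene names of the form HOXA, HOXB, HOXC or HOXD followed by a number, which gave 39 of the 60645 gene names counted. They encode homeodomain transcription factors and lie in 4 clusters on separate chromosomes, 11 genes in HOXA, 10 in HOXB, 9 in HOXC and 9 in HOXD. Within a cluster all HOX genes are read in the same direction, and genes with the same number in different clusters (paralog groups) descend from a common ancestor. The order along the chromosome follows the order of use along the body axis of the embryo: low numbers, at the 3′ end of a cluster, act first and in the head and neck, and high numbers, at the 5′ end, act later and in the trunk, limbs and urogenital tract. The on and off states of the clusters are kept by Polycomb repression and by trithorax and SWI/SNF chromatin activities, and cultured lines usually hold a fixed HOX pattern of their tissue of origin.

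PolyA RNA was sequenced from HEK-293T, a transformed human embryonic kidney line, in a derivative with ARID1A knocked out that the study names 12KO. ARID1A is the largest subunit of the BAF form of the SWI/SNF chromatin remodelling complex, and IDR1b is a segment of its disordered, unfolded part. EWS-FLI1 is the fusion transcription factor of Ewing sarcoma, which joins the N-terminal part of EWSR1 to the DNA-binding part of FLI1. The stated question was what IDR1b contributes to gene regulation by EWS-FLI1.

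All 6 groups carried the ARID1A knockout. The cells were given an empty vector in place of ARID1A (called no ARID1A below), wild-type ARID1A (WT) or ARID1A without IDR1b (ΔIDR1b), each with a further empty vector or with EWS-FLI1. The titles mark all of these as O/E, that is, overexpressed, and do not say how ARID1A was introduced. No group kept the cells' own ARID1A intact, so WT could not be compared with unedited cells. Each group held 2 libraries, numbered repeats 1 and 2. The protocol gives 2 µg of EWS-FLI1 plasmid and harvest after 48 h. The labels name a single knockout line and do not say whether the repeats were separate cultures, so the p-values measure only the spread between these libraries, which may be technical.

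Library totals ran from 11702251 to 14445379 counts, so a gene with no count in a library could still have stood at up to 0.208 to 0.256 CPM, the level of 3 counts. These floors use the unscaled totals. Every other CPM is the count scaled to the library total after TMM, a correction for composition. Such floors cover counting error only. ARID1A itself stood at 147.1 to 164.2 CPM in the 4 libraries of no ARID1A, at 1840 to 2287 CPM in WT and at 2603 to 2873 CPM in ΔIDR1b. FLI1 had at most 2 counts in any library with the empty vector, and its group means with EWS-FLI1 were 1756 CPM in no ARID1A, 3563 CPM in WT and 1893 CPM in ΔIDR1b. Of 6 transcripts taken as marks of HEK-293T cells, PAX2, NEFL, LIN28B and VIM were present in every library, while NEFM reached at most 1 count and SOX11 had 0 counts. The summed level of 16 markers of blood, fibroblasts, endothelium, squamous epithelium, liver and muscle lay between 9.71 and 13.98 CPM in all libraries.

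On GRCh38 the stretch from HOXA2 to HOXA13 spanned chr7:27100354-27200091, the HOXB genes chr17:48528526-48728750, the HOXC genes chr12:53938831-54056030 and the HOXD genes chr2:176092721-176190907. The 250 bases before the RefSeq start are shown for 4 members on which the results below turn, from RefSeq sequence of the same build, written 5′ to 3′ on the strand of the gene with every CG dinucleotide in capitals. HOXA13 (chr7:27200092-27200341, minus strand, 40 CG) and HOXA4 (chr7:27130758-27131007, minus strand, 26 CG) were among the members with the deepest falls. HOXD11 (chr2:176107030-176107279, plus strand, 23 CG) fell in a cluster in which HOXD8 (chr2:176129455-176129704, plus strand, 28 CG) rose. RefSeq starts can differ from those of the annotation used for the counts. The HOXD11 window lies inside HOXD11 as counted (chr2:176104216-176109754), and the windows of HOXA4 (counted at chr7:27128507-27130780) and HOXD8 (counted at chr2:176129694-176132695) overlap the first bases of these genes.
HOXA13: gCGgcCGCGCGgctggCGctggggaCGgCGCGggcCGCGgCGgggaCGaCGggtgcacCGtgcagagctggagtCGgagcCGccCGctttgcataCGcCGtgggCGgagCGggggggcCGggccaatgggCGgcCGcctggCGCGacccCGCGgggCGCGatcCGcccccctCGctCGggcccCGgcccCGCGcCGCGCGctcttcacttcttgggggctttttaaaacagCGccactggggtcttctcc
HOXA4: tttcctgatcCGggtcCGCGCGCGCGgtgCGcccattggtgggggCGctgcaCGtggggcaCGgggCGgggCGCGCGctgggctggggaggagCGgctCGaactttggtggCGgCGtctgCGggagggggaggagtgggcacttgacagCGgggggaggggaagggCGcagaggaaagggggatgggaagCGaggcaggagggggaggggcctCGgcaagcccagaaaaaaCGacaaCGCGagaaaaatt
HOXD11: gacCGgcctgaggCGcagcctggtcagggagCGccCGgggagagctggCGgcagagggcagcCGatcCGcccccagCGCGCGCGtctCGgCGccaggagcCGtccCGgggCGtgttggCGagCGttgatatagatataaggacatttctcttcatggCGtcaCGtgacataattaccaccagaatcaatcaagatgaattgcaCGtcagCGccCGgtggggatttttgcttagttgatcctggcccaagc
HOXD8: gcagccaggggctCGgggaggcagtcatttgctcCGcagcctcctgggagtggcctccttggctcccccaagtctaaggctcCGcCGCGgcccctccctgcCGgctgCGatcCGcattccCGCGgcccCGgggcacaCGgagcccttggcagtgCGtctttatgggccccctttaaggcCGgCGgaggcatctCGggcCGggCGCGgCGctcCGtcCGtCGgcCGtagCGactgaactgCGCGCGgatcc

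All 4 windows are rich in CG, the fallers and the riser alike. RefSeq windows were matched for 19 of the 39 members, in 26 windows. Over those 26 the median was 19.5 CG dinucleotides per window against 11 over all 34943 windows of the same length, while the median GC content was close, 58.8% against 58%. The core of sites bound by ETS factors such as FLI1, GGAA or TTCC on either strand, was present in 22 of the 26 windows and in 92.7% of all windows. Its tandem repeat, GGAAGGAA or TTCCTTCC, was present in 1 of the 26, that of HOXA2, and in 3.06% of all windows. These are matches of letters, not measured binding. No window was matched for 20 members, among them HOXA5, HOXB2, HOXB3, HOXB4, HOXB5, HOXB6, HOXB7, HOXB8, HOXB9, HOXB13, HOXC5, HOXC6, HOXC8, HOXC9, HOXC10, HOXC11, HOXC12, HOXC13 and HOXD9.

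The knockout line expressed HOX genes from all 4 clusters. In no ARID1A with the empty vector 26 of the 39 members had a mean of at least 10 CPM, 8 of at least 50 CPM and 5 of under 1 CPM. HOXA2, HOXB1, HOXC5, HOXC12, HOXD1 and HOXD12 stayed under 2 CPM in all 12 libraries. HOXB1, a hindbrain gene, had 1 count in all 12 libraries together, and HOXD1 had 55 counts, 0 to 10 per library. These 2 members were too low to be tested, which left 37. All of the 15 members of paralog groups 4 to 8 and all 16 of groups 9 to 13 were tested, but of the 8 members of groups 1 to 3 only 6.

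Levels of different genes were compared per kilobase of exon. That length includes bases shared with other genes, on which fragments were left out, so members with shared bases can stand too low. Shared were 18.2% of HOXD10, 21.4% of HOXD11, 17.5% of HOXC4 and 9.7% of HOXC10, but none of HOXA5, HOXB9 and HOXD13. Ranks that involve members with shared bases are therefore uncertain. HOXD13 and HOXB9 had the highest levels per length in every group. HOXD13, a posterior gene known for its part in digit formation, stood at 64.0 ± 1.0 CPM per kb (SD, n = 2) in no ARID1A with the empty vector, and HOXB9 at 55.6 ± 2.9 CPM per kb (SD, n = 2). In WT with the empty vector the order was turned, with HOXB9 at 56.6 ± 1.0 and HOXD13 at 53.2 ± 7.1 CPM per kb, which did not differ beyond their spread. The next members in no ARID1A with the empty vector were HOXA5, needed for lung development, at 40.3 ± 0.35 CPM per kb and HOXD10 at 39.1 ± 0.98 CPM per kb, followed by HOXD11 at 33.3 ± 4.6 CPM per kb. HOXA5 was the highest HOXA member. HOXC10, the highest HOXC member at 15.7 ± 2.2 CPM per kb, and HOXC4 at 15.3 ± 0.18 CPM per kb lay within their spread of each other.

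With the ARID1A transgenes the summed HOX level was lower in every cluster. In no ARID1A with the empty vector all 39 members together made up 1254 and 1285 CPM, in WT 918.4 and 893.8 CPM and in ΔIDR1b 886.8 and 848.7 CPM. With EWS-FLI1 the sums were 1177 and 1172 CPM in no ARID1A, 809.8 and 859.2 CPM in WT and 747.8 and 812.2 CPM in ΔIDR1b. Every library of no ARID1A thus lay above every library with a transgene. The sums are led by a few members of high level and were not tested.

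**Figure D1:**
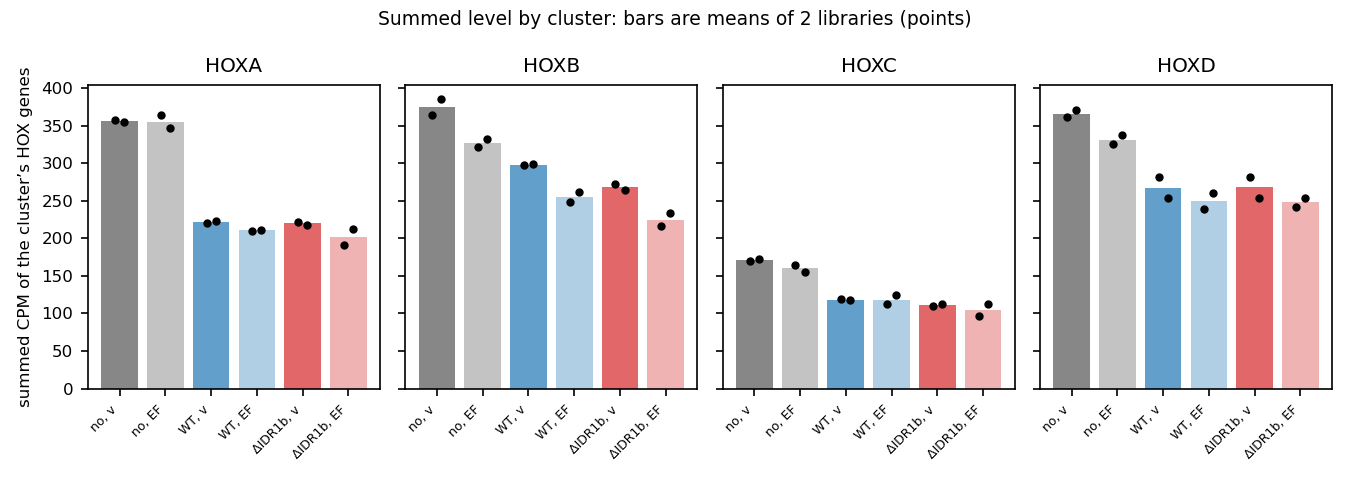
Summed CPM (TMM-scaled) of the HOX genes of each cluster in the 6 groups; bars are means, points the 2 libraries, v the empty vector and EF EWS-FLI1. In HOXA, for example, the means are 356.6 and 355.4 CPM in no ARID1A and between 202.3 and 222.0 CPM in the 4 groups with a transgene.

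The next comparison asked which HOX genes changed when WT ARID1A was overexpressed in the knockout line. With the empty vector 18 of the 37 members tested fell and 0 rose, in a comparison in which 11.7% of all genes were called, 5.19% lower and 6.5% higher (edgeR quasi-likelihood test, Benjamini-Hochberg adjusted p under 0.05 over 20377 genes). With EWS-FLI1 17 fell and 0 rose, where 18.1% of all genes were called, 8.36% lower and 9.72% higher. At an unadjusted p under 0.05, the number higher was 0 with the empty vector but 1, HOXC13, in the pair with EWS-FLI1, and DESeq2 called 0 members higher in either. The members' median log2 fold changes were -0.49 (empty vector) and -0.52 (EWS-FLI1), against -0.01 and -0.02 over all genes. The libraries of the 2 groups did not overlap for 28 members with the empty vector, 27 of them lower, and for 26 with EWS-FLI1, 22 of them lower, as was so for 56.3% and 54.9% of all genes. These comparisons share no library, though the fitted spread is common to all groups. In both, 15 members fell, 83.3% of the 18 and 88.2% of the 17. The same share was not computed over all genes, so it is not known whether the members stand out in it. In bulk RNA a lower level in each cell and fewer cells with the transcript cannot be told apart. In the pair with EWS-FLI1 the mean level of FLI1 also differed, 3563 CPM in WT and 1756 CPM in no ARID1A, and the part of that was not tested.

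HOXA13, which acts in the digits and the urogenital tract, changed most. It stood at 90.1 and 81.8 CPM in no ARID1A with the empty vector and at 27.6 and 34.0 CPM in WT, and with EWS-FLI1 at 102 and 94.0 CPM against 32.2 and 28.8 CPM. The lowest library without ARID1A was more than 2-fold above the highest WT library. Its fall was 2.79-fold with the empty vector (log2 -1.48, SE 0.15, adjusted p = 7.85e-09) and 3.21-fold with EWS-FLI1 (log2 -1.68, SE 0.15, adjusted p = 3.59e-10). HOXB2, a gene of hindbrain segments, stood at 47.3 CPM in both libraries of no ARID1A with the empty vector and at 22.2 and 22.4 CPM in WT, and with EWS-FLI1 at 38.5 and 46.1 CPM against 16.5 and 21.8 CPM. Its fall was 2.12-fold (log2 -1.09, SE 0.15, adjusted p = 8.39e-06) and 2.21-fold (log2 -1.14, SE 0.16, adjusted p = 2.62e-06). HOXB2 was the single member of paralog groups 1 to 3 that fell.

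Other falls were shallower. HOXB6 went from 72.9 and 75.4 CPM to 39.8 and 40.6 CPM with the empty vector (log2 -0.88, SE 0.14, adjusted p = 2.91e-05) and from 60.8 and 65.4 to 33.1 and 40.7 CPM with EWS-FLI1 (log2 -0.77, SE 0.14, adjusted p = 1.17e-04). HOXA6 went from 22.8 and 23.9 CPM to 8.64 and 14.7 CPM with EWS-FLI1, 50.1% lower (SE 0.19 on the log2 scale, adjusted p = 3.16e-04), and from 19.7 and 21.3 to 12.0 and 13.3 CPM with the empty vector (log2 -0.69, SE 0.19, adjusted p = 0.0147). With the empty vector the call was lost without any single library compared (adjusted p from 0.0521 to 0.16). In both genes the groups stood apart with either vector. HOXA4 went from 19.0 and 17.2 CPM to 10.6 and 10.1 CPM with the empty vector (log2 -0.81, SE 0.21, adjusted p = 0.0085), a call that was lost without repeat 1 of no ARID1A (adjusted p = 0.0823) or without repeat 1 (0.0697) or 2 (0.0744) of WT. HOXA7, at 4.51 and 2.67 CPM without ARID1A and 0.902 and 2.04 CPM in WT with EWS-FLI1, was 2.43-fold lower (log2 -1.28, SE 0.41, adjusted p = 0.0251). That call was lost without repeat 1 of no ARID1A (log2 -0.86, adjusted p = 0.32), without repeat 1 of WT (log2 -0.81, adjusted p = 0.228) and in a fit of the 4 libraries alone (adjusted p = 0.0928).

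The posterior members HOXD10 and HOXD11, used in the lumbosacral region, limbs and, for the HOX11 group, the embryonic kidney, fell with WT as well. HOXD11 went from 63.5 and 77.4 CPM to 43.2 and 38.3 CPM with the empty vector, and HOXD10 from 98.9 and 95.5 to 62.9 and 63.2 CPM. Their log2 fold changes were -0.79 (SE 0.14) and -0.62 (SE 0.11) with the empty vector, and -0.61 (SE 0.14) and -0.74 (SE 0.11) with EWS-FLI1. The HOXD11 call with EWS-FLI1 was lost without repeat 2 of no ARID1A (adjusted p = 0.0554). HOXA5 went from 69.8 and 68.9 to 44.1 and 45.3 CPM with the empty vector (log2 -0.63, SE 0.12) and from 66.1 and 60.5 to 44.0 and 38.8 CPM with EWS-FLI1 (log2 -0.61, SE 0.12). The other members that fell in both comparisons were HOXA9, HOXB5, HOXB8, HOXC4, HOXC6, HOXC9 and HOXC10, by 0.44 to 0.94 on the log2 scale. HOXA11, HOXC8 and HOXD9 passed the test with the empty vector alone, and HOXA7 and HOXB13 with EWS-FLI1 alone, which does not show that they differed between vectors. HOXB9, next to HOXB8 in its cluster and among the highest members, was nearly level, with log2 fold changes of 0.02 (SE 0.10) and 0.04 (SE 0.10).

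The number of falls depended on single libraries. With the empty vector 6 of the 18 falls were called under every alternative run, HOXA5, HOXA13, HOXB2, HOXB6, HOXD10 and HOXD11, and with EWS-FLI1 7 of the 17, HOXA5, HOXA6, HOXA13, HOXB2, HOXB6, HOXB8 and HOXD10 (a limit on fold size apart). The count with the empty vector was 8 without repeat 2 of no ARID1A, 7 without repeat 1 of WT and 9 without repeat 2 of WT. With EWS-FLI1 it was 11, of them 10 lower, without repeat 1 of no ARID1A. The log2 fold changes with every library were at least 1 in size for 2 of the called members with the empty vector and for 4 with EWS-FLI1.

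**Figure D2:**
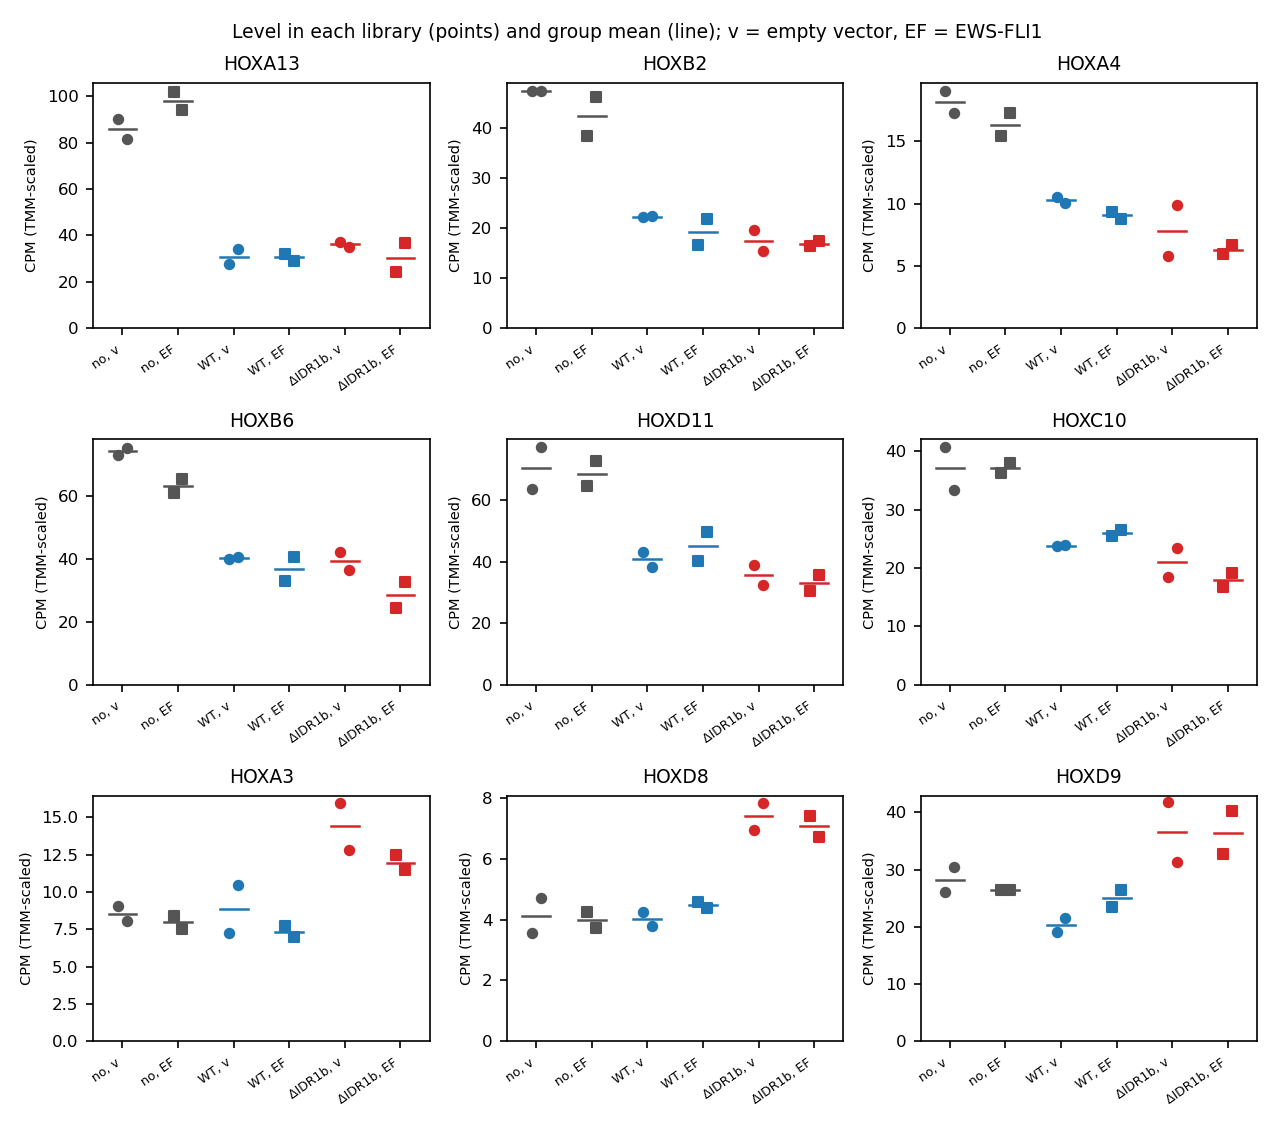
Level in CPM (TMM-scaled) of 9 HOX genes in each library (points; circles empty vector, squares EWS-FLI1) with the group mean (line). HOXA13, HOXB2, HOXA4, HOXB6, HOXD11 and HOXC10 are highest in no ARID1A; HOXA3 and HOXD8 are highest in ΔIDR1b, at 11.4 to 16.0 and 6.73 to 7.85 CPM, and so is HOXD9.

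ΔIDR1b was compared with no ARID1A in the same way, against the same libraries of no ARID1A as WT. With the empty vector 18 of 37 members fell and 3 rose, where 33.3% of all genes were called, 16.8% lower and 16.4% higher. With EWS-FLI1 20 fell and 4 rose, where 35.9% of all genes were called, 17.9% lower and 18.1% higher. The libraries did not overlap for 31 members with the empty vector, 23 of them lower, and for 30 with EWS-FLI1, 24 of them lower, as was so for 68.9% and 70% of all genes. The members' medians were -0.30 and -0.48 on the log2 scale, against 0.00 and 0.02 over all genes. Without TMM scaling the median of all genes moved to 0.12 in both comparisons, and the members were then called 14 lower and 4 higher with the empty vector and 17 lower and 4 higher with EWS-FLI1. With EWS-FLI1 the count of called members was 13 without repeat 1 of no ARID1A and 15 without repeat 1 of ΔIDR1b. The 2 comparisons share no library, and 17 members fell in both, 94.4% of the 18 and 85% of the 20. Again this share was not computed over all genes.

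The deepest falls again included HOXA13 and HOXB2. HOXB2 stood at 19.6 and 15.5 CPM in ΔIDR1b with the empty vector and 16.4 and 17.3 CPM with EWS-FLI1, below every library of no ARID1A. These were falls of 2.7-fold (log2 -1.43, SE 0.16, adjusted p = 9.03e-09) and 2.5-fold (log2 -1.32, SE 0.16, adjusted p = 4.48e-08). HOXA13 stood at 37.4 and 35.1 CPM with the empty vector and 24.2 and 36.6 CPM with EWS-FLI1, falls of 2.37-fold (log2 -1.25, SE 0.14, adjusted p = 2.72e-08) and 3.22-fold (log2 -1.69, SE 0.15, adjusted p = 5.16e-11). HOXA4 stood at 5.76 and 9.92 CPM with the empty vector and 5.93 and 6.66 CPM with EWS-FLI1, falls of 2.31-fold (log2 -1.21, SE 0.21, adjusted p = 3.48e-05) and 2.59-fold (log2 -1.37, SE 0.22, adjusted p = 7.38e-06). Both genes stood below every library of no ARID1A, whose HOXA4 libraries ran from 15.4 to 19.0 CPM.

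HOXB5 and HOXB6 lie side by side in the HOXB cluster, and both fell with ΔIDR1b. HOXB5, which acts in the gut nerve cells' precursors, went from 14.3 and 19.1 to 8.24 and 7.35 CPM with the empty vector (log2 -1.10, SE 0.20, adjusted p = 7.51e-05) and from 14.89 and 13.63 to 7.13 and 6.31 CPM with EWS-FLI1 (log2 -1.08, SE 0.21, adjusted p = 1.16e-04). HOXB6 stood at 24.4 and 32.8 CPM in ΔIDR1b with EWS-FLI1, 2.2-fold below no ARID1A (log2 -1.14, SE 0.14, adjusted p = 7.05e-08). The falls of HOXA4, HOXA9, HOXA13, HOXB2, HOXB5, HOXB6, HOXB8, HOXC4, HOXC10 and HOXD11 with ΔIDR1b were called with both vectors under every alternative run (a limit on fold size apart), as were 13 of the 18 falls with the empty vector and 12 of the 20 with EWS-FLI1.

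The members that rose with ΔIDR1b were of low to middling level. HOXD8 stood at 3.56, 4.70, 4.25 and 3.71 CPM in the libraries of no ARID1A and at 6.93, 7.85, 7.42 and 6.73 CPM in ΔIDR1b, with no overlap. The rise was 1.79-fold with the empty vector (log2 0.84, SE 0.27, adjusted p = 0.0143) and 1.77-fold with EWS-FLI1 (log2 0.83, SE 0.27, adjusted p = 0.0164). The first call was lost without repeat 1 of no ARID1A (adjusted p = 0.155) or repeat 2 of ΔIDR1b (0.108), the second without repeat 1 (0.0523) or 2 (0.125) of no ARID1A or repeat 1 of ΔIDR1b (0.0964). HOXA3, needed for the thymus and parathyroid glands, stood at 9.05, 8.06, 8.42 and 7.504 CPM in no ARID1A and at 16.0, 12.8, 12.5 and 11.4 CPM in ΔIDR1b, again with no overlap. The rise was 1.68-fold with the empty vector (log2 0.75, SE 0.21, adjusted p = 0.00609) and 1.5-fold with EWS-FLI1 (log2 0.59, SE 0.22, adjusted p = 0.0335). The first call was lost without repeat 2 of no ARID1A (adjusted p = 0.0708) or repeat 1 of ΔIDR1b (0.109). The second was lost in DESeq2 (0.0594), with no filter (0.0677) and without any single library compared (0.0652 to 0.194).

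HOXB3 rose with the empty vector alone, from 26.0 and 25.7 to 35.5 and 33.7 CPM (log2 0.42, SE 0.15, adjusted p = 0.0246), and with EWS-FLI1 it stood at 24.7 and 22.9 against 28.9 and 26.5 CPM, not called. Its call was lost without any single library compared (adjusted p from 0.0765 to 0.144). HOXD3 rose with EWS-FLI1 from 2.98 and 3.71 to 6.57 and 5.48 CPM (log2 0.85, SE 0.32, adjusted p = 0.0391), which was lost in DESeq2 (0.0719), with no filter (0.0561) and without any single library compared (0.0558 to 0.218). HOXD9 rose with EWS-FLI1 from 26.5 CPM in both libraries to 32.7 and 40.2 CPM (log2 0.46, SE 0.16, adjusted p = 0.0193), which was lost without repeat 1 (0.098) or 2 (0.0957) of no ARID1A or repeat 2 of ΔIDR1b (0.251). Each of these rises was thus lost without at least 1 of the libraries compared.

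Calls were also counted by place along the clusters. Of all genes 5.19% and 8.36% were lower with WT, and 16.8% and 17.9% lower and 16.4% and 18.1% higher with ΔIDR1b. The single fall in groups 1 to 3 with ΔIDR1b was near that share. With WT and the empty vector 1 of 6 members of paralog groups 1 to 3 fell, 9 of 15 of groups 4 to 8 and 8 of 16 of groups 9 to 13. With EWS-FLI1 the counts were 1, 9 and 7. With ΔIDR1b and the empty vector groups 1 to 3 had 1 fall and 2 rises, groups 4 to 8 had 7 falls and 1 rise, and groups 9 to 13 had 10 falls and 0 rises. With EWS-FLI1 these were 1 and 2, 8 and 1, and 11 and 1. The median log2 fold change of groups 1 to 3 was -0.19 and -0.11 for WT and 0.28 and 0.00 for ΔIDR1b, against -0.69 and -0.64, and -0.37 and -0.43, for groups 4 to 8. For groups 9 to 13 it was -0.47 and -0.48 with WT and -0.39 and -0.58 with ΔIDR1b. Groups 1 to 3 hold few members tested, and the difference between position classes was not tested.

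By cluster, 6 of 11 HOXA members, 4 of 9 HOXB members, 5 of 9 HOXC members and 3 of 8 HOXD members fell with WT and the empty vector. With EWS-FLI1 these were 6, 5, 4 and 2. Of all genes 5.19% and 8.36% were lower with WT, and 16.8% and 17.9% lower and 16.4% and 18.1% higher with ΔIDR1b. With ΔIDR1b and the empty vector the falls and rises were 6 and 1 in HOXA, 5 and 1 in HOXB, 4 and 0 in HOXC and 3 and 1 in HOXD, and with EWS-FLI1 7 and 1, 5 and 0, 5 and 0, and 3 and 3. The HOXD falls with ΔIDR1b were HOXD10, HOXD11 and HOXD13 at the 5′ end, and the rises were HOXD3, HOXD8 and HOXD9 towards the 3′ end. Of these rises only that of HOXD8 was called with both vectors, and HOXD3 and HOXD9 were called with EWS-FLI1 alone. HOXD12, also at the 5′ end, and HOXD4, also towards the 3′ end, were called with neither vector. Of the 37 members, 24 fell in at least 1 of the 4 comparisons with no ARID1A, a share that was not computed over all genes. The 13 that fell in none included HOXA2, HOXA3, HOXB3, HOXB4, HOXB7, HOXC5, HOXC12, HOXC13, HOXD3, HOXD4, HOXD8 and HOXD12, among them 4 of those under 2 CPM.

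**Figure D3:**
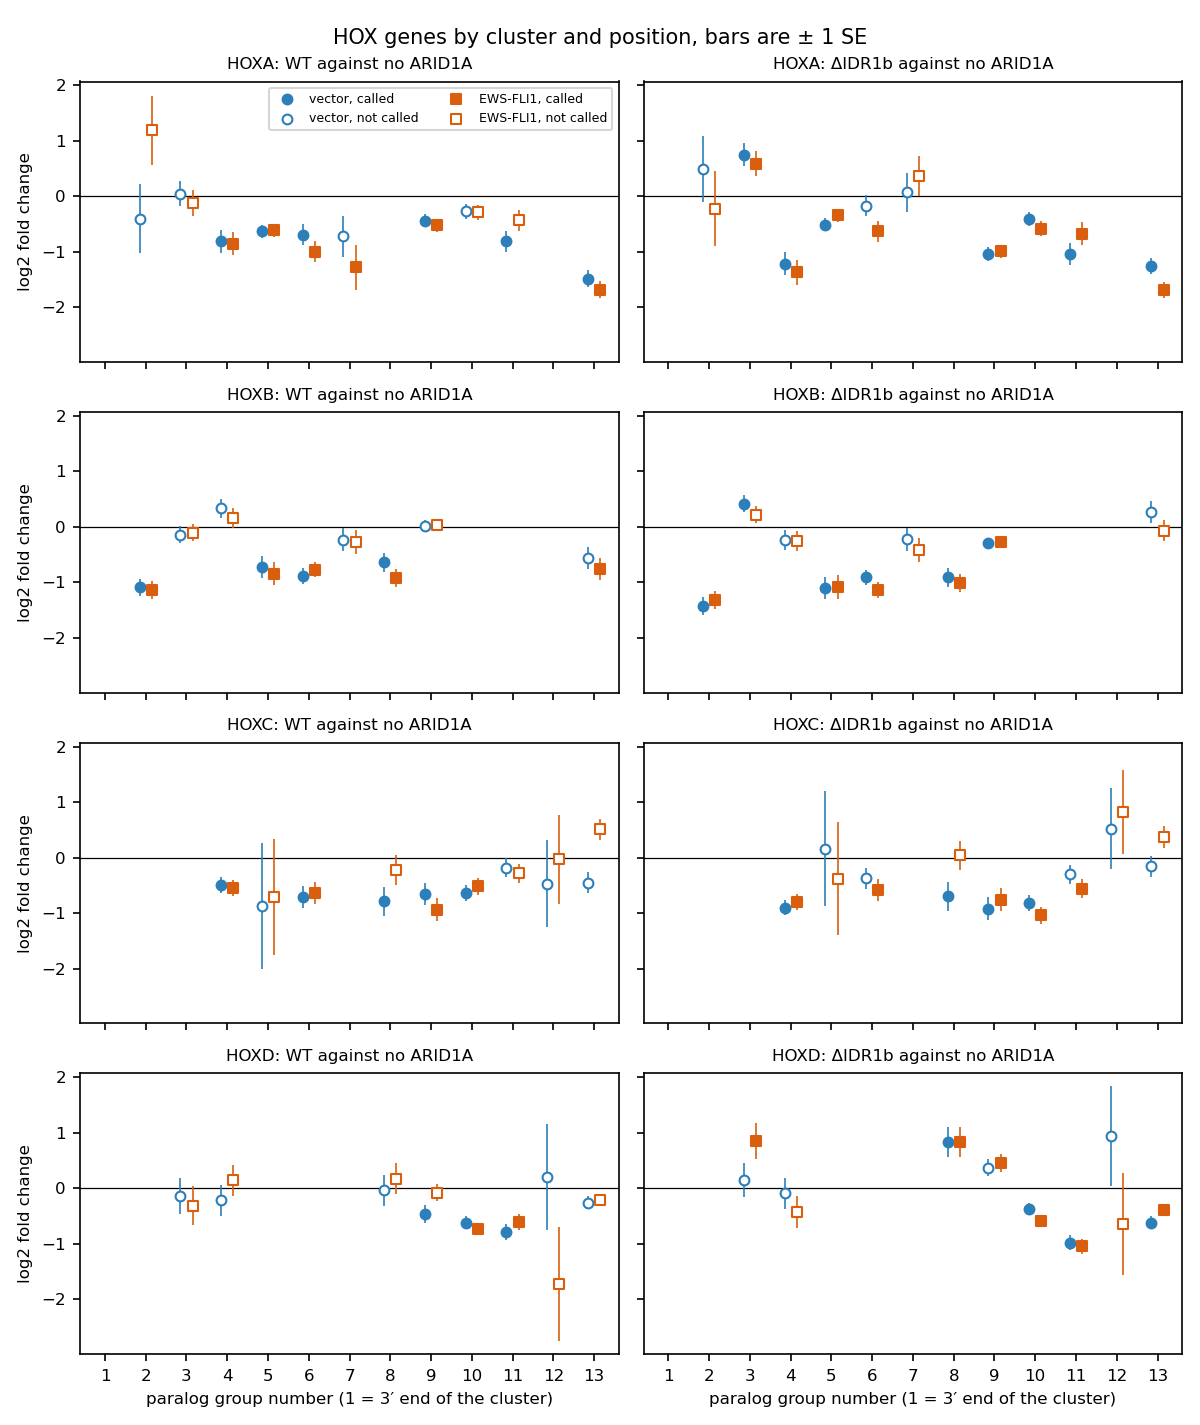
Log2 fold change of the HOX genes tested, 1 left out, against no ARID1A (y axis) by paralog group number (x axis), with 1 row per cluster, WT on the left and ΔIDR1b on the right; circles are the empty vector, squares EWS-FLI1, filled points have an adjusted p under 0.05 and bars are ± 1 SE. Most filled points lie below 0 and at paralog groups 4 to 13, which also hold most of the members tested. The widest bars belong to HOXA2, HOXC5, HOXC12 and HOXD12, which had few counts.

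The comparison of ΔIDR1b with WT asked what the loss of IDR1b changed. With the empty vector 6 members were higher and 5 lower in ΔIDR1b, where 24.5% of all genes were called, 11.1% higher and 13.4% lower. With EWS-FLI1 5 were higher and 4 lower, where 18.6% of all genes were called, 8.48% higher and 10.1% lower. The shares of members called, 29.7% and 24.3%, were close to those of all genes. The libraries did not overlap for 27 and 25 members, as was so for 64.1% and 54.4% of all genes. Under every alternative run HOXD9 and HOXA9 were called with the empty vector and 0 members with EWS-FLI1 (a limit on fold size apart). Without TMM scaling the median of all genes moved to 0.18 (empty vector) or 0.15 (EWS-FLI1), and the members were called 8 higher and 1 lower, or 8 higher and 0 lower. Upper-quartile scaling gave 7 higher and 3 lower, and 5 higher and 3 lower. ARID1A itself was 2053 ± 25.5 CPM in WT and 2781 ± 129.5 CPM in ΔIDR1b with the empty vector (SD, n = 2 each), so the transgenes also differed in level, and the part of that in these results was not tested. With EWS-FLI1 the mean level of FLI1 differed too, 3563 CPM in WT and 1893 CPM in ΔIDR1b, and its part was not tested either.

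HOXA9 and HOXB9 were lower and HOXA3, HOXB13 and HOXD9 higher in ΔIDR1b than in WT with both vectors, in comparisons that share no library. HOXA9, a gene of blood progenitors and of leukaemia, stood at 52.6, 52.2, 49.2 and 48.5 CPM in the WT libraries and at 34.9, 34.3, 34.9 and 35.5 CPM in ΔIDR1b, each library of WT above each of ΔIDR1b. It was lower by 33.9% with the empty vector (log2 -0.60, SE 0.12, adjusted p = 3.80e-04) and by 27.9% with EWS-FLI1 (log2 -0.47, SE 0.12, adjusted p = 0.00549). In no ARID1A it stood at 66.9 to 75.0 CPM, above every library of the other 2 states. The call with EWS-FLI1 was lost without scaling (log2 -0.33, adjusted p = 0.051), in a fit of the 4 libraries alone (0.0659) and without repeat 1 of ΔIDR1b (0.0558).

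HOXB9 stood at 148 and 144 CPM in WT and 114 and 121 CPM in ΔIDR1b with the empty vector (log2 -0.32, SE 0.10, adjusted p = 0.0219), a call lost with upper-quartile factors (0.0714), without scaling (log2 -0.15, 0.299) and without any single library compared (0.0745 to 0.178). With EWS-FLI1 it stood at 120 and 125 CPM against 92.0 and 106 CPM (log2 -0.30, SE 0.10, adjusted p = 0.0368). This was not called with upper-quartile factors (adjusted p = 0.0724), without scaling (log2 -0.16, adjusted p = 0.277), in a fit of the 4 libraries alone (0.184), or without 8 of the 12 libraries in turn. Those were both repeats of no ARID1A with either vector, both of ΔIDR1b with the empty vector, repeat 2 of WT with EWS-FLI1 and repeat 1 of ΔIDR1b with EWS-FLI1 (adjusted p from 0.053 to 0.358).

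HOXB13, a prostate gene at the far 5′ end of its cluster, stood at 7.21 and 8.58 CPM in WT and 15.1 and 12.98 CPM in ΔIDR1b with the empty vector (log2 0.83, SE 0.20, adjusted p = 0.00198). With EWS-FLI1 it stood at 8.27 and 8.93 against 13.98 and 13.7 CPM (log2 0.69, SE 0.19, adjusted p = 0.0119). In no ARID1A it stood at 12.0, 11.2, 13.4 and 15.6 CPM, above every WT library. The first call was lost without repeat 1 of WT (adjusted p = 0.0517), the second without repeat 1 of WT (0.0643), repeat 1 (0.0711) or 2 (0.0515) of ΔIDR1b, or in a fit of the 4 libraries alone (0.0606).

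HOXD9 stood at 19.2 and 21.6 CPM in WT and 41.7 and 31.2 CPM in ΔIDR1b with the empty vector (log2 0.84, SE 0.16, adjusted p = 1.59e-04), and at 23.4 and 26.5 against 32.7 and 40.2 CPM with EWS-FLI1 (log2 0.55, SE 0.15, adjusted p = 0.0121). With EWS-FLI1 the call was lost without repeat 1 of WT (0.0668), without repeat 2 of ΔIDR1b (0.188) and in a fit of the 4 libraries alone (0.0639). HOXA3 stood at 7.28, 10.4, 7.74 and 6.96 CPM in WT, and was 0.70 higher in ΔIDR1b on the log2 scale with both the empty vector (SE 0.21, adjusted p = 0.0137) and EWS-FLI1 (SE 0.22, adjusted p = 0.0213). Both genes were higher in each ΔIDR1b library than in each WT library. The HOXA3 call with the empty vector was lost without repeat 1 of WT (log2 0.46, adjusted p = 0.242) or repeat 1 of ΔIDR1b (0.183). With EWS-FLI1 it was lost in a fit of the 4 libraries alone (0.0671), without repeat 2 of WT (0.0782) and without repeat 1 (0.134) or 2 (0.0518) of ΔIDR1b.

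Other members were called with the empty vector alone. HOXD8 stood at 4.24 and 3.804 CPM in WT and 6.93 and 7.85 CPM in ΔIDR1b (log2 0.88, SE 0.27, adjusted p = 0.0145), lost without repeat 1 (0.0581) or 2 (0.0961) of WT or repeat 2 of ΔIDR1b (0.116). HOXA6 (log2 0.52, SE 0.19) and HOXB3 (log2 0.56, SE 0.15) were also higher, at adjusted p of 0.0431 and 0.00507. HOXA6 was lost in DESeq2 (0.0578), with no filter (0.0556) and without any single library of no ARID1A or any empty-vector library of WT or ΔIDR1b (0.0519 to 0.239), and HOXB3 without repeat 1 of WT (0.0834) or repeat 1 of ΔIDR1b (0.0583). HOXB4, known for the expansion of blood stem cells, stood at 19.5 and 20.1 CPM in WT and 12.6 and 13.8 CPM in ΔIDR1b (log2 -0.58, SE 0.18, adjusted p = 0.0142), lost without scaling (0.0825) and without any single library compared (0.0558 to 0.125). HOXC4 stood at 30.2 CPM in both WT libraries and at 24.9 and 20.5 CPM in ΔIDR1b (log2 -0.41, SE 0.14, adjusted p = 0.0321). HOXD13 stood at 141 and 116 CPM in WT and 102 and 99.6 CPM in ΔIDR1b (log2 -0.35, SE 0.11, adjusted p = 0.0143). Neither of these falls was called without scaling (adjusted p = 0.221 and 0.207). HOXC4 was also lost with upper-quartile factors (0.0718), with no filter (0.0554), and without repeat 1 (0.123) or 2 (0.116) of WT or repeat 2 of ΔIDR1b (log2 -0.28, 0.339), and HOXD13 without repeat 1 of WT (log2 -0.22, 0.293) or repeat 1 (0.0766) or 2 (0.105) of ΔIDR1b.

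With EWS-FLI1 alone, HOXA7 stood at 0.902 and 2.04 CPM in WT and 5.51 and 3.82 CPM in ΔIDR1b, 3.15-fold higher (log2 1.66, SE 0.39, adjusted p = 0.003). HOXD3 stood at 3.38 and 1.97 against 6.57 and 5.48 CPM, 2.25-fold higher (log2 1.17, SE 0.33, adjusted p = 0.0113). HOXC10, at 25.5 and 26.5 against 16.8 and 19.2 CPM (log2 -0.53, SE 0.16, adjusted p = 0.0157), and HOXD11, at 40.4 and 49.8 against 30.4 and 35.9 CPM (log2 -0.44, SE 0.14, adjusted p = 0.0256), were lower. All of these were lost without repeat 1 of ΔIDR1b (adjusted p = 0.0588, 0.0943, 0.168 and 0.253). HOXA7 was also lost without repeat 1 of WT (log2 1.18, adjusted p = 0.0593), HOXD3 without repeat 2 of WT (0.11), HOXD11 without repeat 2 of WT (log2 -0.29, 0.179), and HOXC10 and HOXD11 without scaling (0.0758 and 0.128) and in a fit of the 4 libraries alone (0.078 and 0.109).

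The number of members called between ΔIDR1b and WT moved with single libraries. With the empty vector it was 2 without repeat 1 of WT, 6 without repeat 2 of WT, 5 without repeat 1 of ΔIDR1b and 6 without repeat 2. With EWS-FLI1 it was 1 without repeat 1 of ΔIDR1b and 2 in a fit of the 4 libraries alone.

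**Figure D4:**
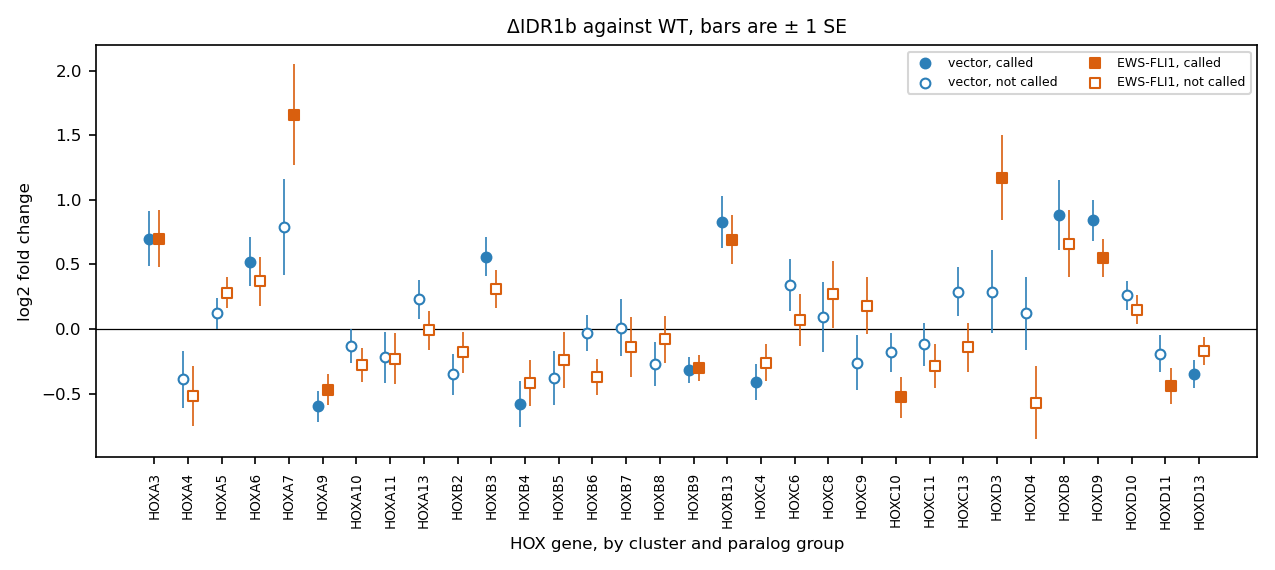
Log2 fold change of ΔIDR1b against WT (y axis) for the HOX genes tested (x axis, by cluster and paralog group), circles with the empty vector and squares with EWS-FLI1, filled where the adjusted p is under 0.05, bars ± 1 SE; HOXA2, HOXC5, HOXC12 and HOXD12, which had few counts, and 1 other are left out. HOXA3, HOXB13 and HOXD9 are filled above 0 and HOXA9 and HOXB9 below 0 with both vectors.

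Few HOX genes were called for EWS-FLI1 against the empty vector. In no ARID1A, WT and ΔIDR1b the edgeR quasi-likelihood test called 0 of 37 members, where 0.0442%, 0.221% and 0.172% of all genes were called, and DESeq2 also called 0 in each. At an unadjusted p under 0.05 there were 3, 5 and 5 members, against 3.16%, 6.53% and 5.45% of all genes. Averaged over the 3 states, 1 member was called, HOXB9, where 0.466% of all genes were called, 0.172% lower, and 7 members, all lower, had an unadjusted p under 0.05, as did 7.9% of all genes in either direction. Those were HOXB9, HOXD13, HOXB6, HOXB7, HOXB8, HOXA10 and HOXB5, of which 5 lie in HOXB, a cluster that holds 10 of the 39 members. Whether HOXB stood out among the clusters was not tested. The median of the members' average log2 fold changes was -0.10, and that of all genes 0.00. FLI1 stood higher in WT (3563 CPM) than in no ARID1A (1756 CPM) and ΔIDR1b (1893 CPM), and the part of that in these values was not tested.

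HOXB9 stood at 138, 149, 148, 144, 114 and 121 CPM in the empty-vector libraries of no ARID1A, WT and ΔIDR1b, and at 119, 120, 120, 125, 92.0 and 106 CPM in those with EWS-FLI1. Within each state both libraries with EWS-FLI1 lay below both with the empty vector. The average fall was 16.3% (log2 -0.26, SE 0.06, adjusted p = 0.0342), and the fold changes in the single states were -0.27, -0.26 and -0.24 (SE 0.10 each). The call was lost without scaling (adjusted p = 0.0535) and without 9 of the 12 libraries in turn (0.0734 to 0.236), all but the WT libraries with EWS-FLI1 and repeat 2 of ΔIDR1b with EWS-FLI1. Without repeat 2 of WT with EWS-FLI1 3 members were called, and without repeat 2 of ΔIDR1b with EWS-FLI1 2.

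Whether EWS-FLI1 acted differently in the 3 states was tested as an interaction. Each of the 3 interactions had 0 called members in edgeR and in DESeq2, where 0.0245%, 0.0196% and 0% of all genes were called. At an unadjusted p under 0.05 each had 1 member of 37, against 4.34%, 3.45% and 3.64% of all genes. HOXC13, a gene of hair and nails, had the smallest p of these. In the group called no ARID1A it went from 17.3 and 15.4 CPM to 10.9 and 11.5 CPM when EWS-FLI1 was given, and in WT from 12.0 and 11.9 CPM to 13.8 and 18.0 CPM. Its interaction was 0.96 (SE 0.27, unadjusted p = 0.00112, adjusted p = 1, edgeR), with a 95% interval of 0.43 to 1.49 before adjustment. The median SE of a member's interaction was 0.27 on the log2 scale.

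Other genes inside the clusters, many of them antisense RNAs, were set beside the members. Of 58 such names 23 were tested. With WT 7 fell and 1 rose with the empty vector and 9 fell and 0 rose with EWS-FLI1. With ΔIDR1b 9 fell and 3 rose, and 9 fell and 2 rose. Of all genes 5.19% and 8.36% were lower with WT, and 16.8% and 17.9% with ΔIDR1b. Higher were 6.5% and 9.72% with WT, and 16.4% and 18.1% with ΔIDR1b. HOXA-AS3, which shares exonic bases with HOXA3, HOXA4, HOXA6 and HOXA7, had the deepest fall: from 85.7 and 92.5 CPM to 22.7 and 23.3 CPM in WT and 17.0 and 14.2 CPM in ΔIDR1b with the empty vector (log2 -1.95 and -2.51, SE 0.13 and 0.14). With EWS-FLI1 the log2 fold changes were -2.32 and -2.87. HOTAIR, a transcript of the HOXC cluster, fell in 3 of the 4 comparisons (log2 -0.85, -0.98 and -0.80) and stood at -0.57 (SE 0.21) for WT with EWS-FLI1. HOTAIRM1, a transcript of the HOXA cluster, fell in 3 (log2 -0.83, -1.28 and -1.68). HOXD-AS2, which overlaps HOXD8 and HOXD3, also rose with ΔIDR1b (log2 0.73 and 0.61, SE 0.19 and 0.20).

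Counting used no strand, and fragments that overlap several genes were left out, so a HOX gene and its antisense partner cannot be fully told apart. HOXA-AS3 shares 62.5% of the exonic bases of HOXA7. HOXA-AS2, HOXA-AS3 and another gene together share 47.8% of HOXA4, with HOXA-AS3 sharing the fewest bases of them. HOXA-AS3 and another gene share 40.1% of HOXA6, HOXB3 and HOXB-AS3 share 32.9% of HOXB6, and HOXD-AS2 shares 24.4% of HOXD8. Other genes share 27.0% of HOXA9, among them HOXA10-AS, and 19.8% of HOXA3, among them HOXA-AS2. In contrast HOXA13 shares 1.7% and HOXB2 3.5% of their exonic bases, and HOXA5, HOXB8, HOXB9, HOXB13, HOXC8 and HOXD9 share none. Among the 21 tested members with under 10% shared, a limit chosen after the data were seen, 9 fell and 0 rose with WT and the empty vector and 8 fell and 0 rose with EWS-FLI1. With ΔIDR1b 10 fell and 0 rose, and 10 fell and 1 rose. In the same order 5.19%, 8.36%, 16.8% and 17.9% of all genes were lower.

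Genes that flank the clusters and other homeobox genes were listed as well. Of 18 tested genes beside the clusters 0 fell and 2 rose with WT and the empty vector, and 0 fell and 1 rose with EWS-FLI1. Of all genes 5.19% were lower and 6.5% higher in the first of these comparisons, and 8.36% and 9.72% in the second. With ΔIDR1b 4 fell and 2 rose with the empty vector, where 16.8% of all genes were lower and 16.4% higher, and 3 fell and 2 rose with EWS-FLI1, where these shares were 17.9% and 18.1%. COPZ1, a coat protein gene near HOXC, was higher in both WT comparisons (log2 0.33 and 0.43, SE 0.10 each). SMUG1, a DNA repair gene near HOXC, was higher in both ΔIDR1b comparisons (log2 1.11 and 1.08, SE 0.18 and 0.19). Of 59 tested homeobox genes outside the clusters 3 fell and 1 rose with WT and the empty vector, and 6 fell and 2 rose with EWS-FLI1. With ΔIDR1b 14 fell and 8 rose, and 12 fell and 7 rose. Of all genes 11.7% and 18.1% were called with WT and 33.3% and 35.9% with ΔIDR1b. The called share of these 59 was near that of all genes with ΔIDR1b and under it with WT. DLX2, a gene of forebrain and branchial arches, fell in all 4 comparisons (log2 -0.77, -0.80, -1.23 and -1.20, SE 0.11 each).

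**Figure D5:**
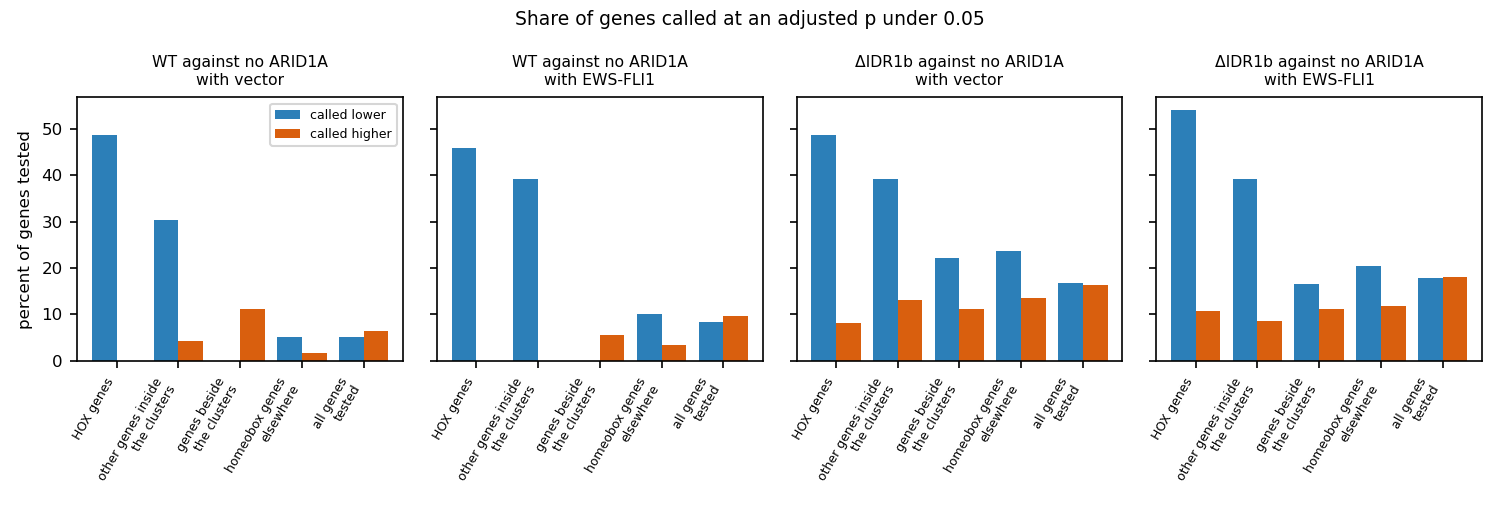
Percent of the genes tested that were called lower (blue) or higher (orange) at an adjusted p under 0.05 in the 4 comparisons with no ARID1A, for the 37 HOX genes, 23 other genes inside the clusters, 18 genes beside them, 59 homeobox genes elsewhere and all 20377 genes. The HOX genes were called lower at 48.6%, 45.9%, 48.6% and 54.1%, against 5.19%, 8.36%, 16.8% and 17.9% of all genes.

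HOX proteins bind DNA together with TALE homeodomain partners of the PBX, MEIS and PKNOX families, and all 9 of these genes were tested. With WT 2 fell and 1 rose with either vector. With ΔIDR1b 4 fell and 3 rose with the empty vector, and 4 fell and 1 rose with EWS-FLI1. Of the 9, 33.3% were thus called in either WT comparison and 77.8% and 55.6% in those of ΔIDR1b, against 11.7% and 18.1%, and 33.3% and 35.9%, of all genes. MEIS1, a common partner of HOXA9, went from 33.6 and 40.2 CPM to 17.3 and 20.1 CPM in WT and 7.59 and 10.9 CPM in ΔIDR1b with the empty vector (log2 -0.98, SE 0.17, and -1.99, SE 0.18). PBX3 fell as well (log2 -0.48, -0.55, -1.15 and -0.84), and PKNOX1 rose (log2 0.66, 0.81, 0.54 and 0.65, SE 0.16 each), the 4 values being those of WT and then ΔIDR1b, each first with the empty vector.

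Regulators of the clusters were listed in the same way. Of 23 Polycomb genes, 1 fell and 2 rose with WT and the empty vector and 6 fell and 4 rose with EWS-FLI1, while with ΔIDR1b 12 fell and 2 rose, and 11 fell and 5 rose. These calls took in 13%, 43.5%, 60.9% and 69.6% of the Polycomb genes, where 11.7%, 18.1%, 33.3% and 35.9% of all genes were called. CBX6 rose (log2 0.68, 0.74, 1.28 and 1.28) and CBX8 fell (log2 -0.60, -0.87, -1.28 and -1.20) in all 4. Of 12 trithorax and other regulators, none passed with WT, though KMT2A, RBBP5 and WDR5 had an unadjusted p under 0.05 in at least 1 of its comparisons, and with ΔIDR1b 1 fell and 2 rose with the empty vector, and 1 fell and 3 rose with EWS-FLI1, KMT2A and MEN1 being higher with both vectors. The called share of these 12 was 25% and 33.3% with ΔIDR1b, near the 33.3% and 35.9% of all genes. Of 13 tested genes listed as upstream of HOX, 1 rose and 0 fell with WT and the empty vector, and 1 rose and 1 fell with WT and EWS-FLI1. With ΔIDR1b 4 rose and 1 fell with the empty vector, and 1 rose and 2 fell with EWS-FLI1. The called share of these 13 was near or under that of all genes, 11.7% and 18.1% with WT and 33.3% and 35.9% with ΔIDR1b. ALDH1A2, which makes retinoic acid, rose in both WT comparisons (log2 0.46 and 0.44, SE 0.12 and 0.13), and GMNN fell in both ΔIDR1b comparisons (log2 -0.86 and -0.81, SE 0.12 each).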

How the data were processed

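PolyA RNA was measured in 12 libraries, 2 in each of 6 groups taken from the titles. Per the file headers, the authors counted read pairs with featureCounts 2.0.1 on exons of GENCODE release 41 (GRCh38, patch 13) joined by gene name, with both ends aligned and no strand option. The deposited values are counts with no normalization, and fragments on several places or genes were not counted. The submitters' processing notes also name STAR, SAMtools and edgeR without versions. Here all 60645 gene names were filtered with filterByExpr of edgeR 4.0.16 (minimum count 10, minimum total 15), which left 20377, and scaled by TMM. A quasi-likelihood model with 1 mean per group was fitted with R 4.3.3 and limma 3.58.1 to all 12 libraries, whose groups share the spread (common biological variation 10.1%). The 13 contrasts were tested 2-sided and a gene was called where its adjusted p (Benjamini-Hochberg) lay under 0.05. SE is the log2 fold change divided by the square root of F, and 95% intervals are normal ones from that SE. CPM uses TMM-scaled totals. The members and lists were chosen with earlier results of these data known. Named genes were, per contrast, up to 4 called rises and 4 called falls of largest size without overlap of libraries, the highest member per length of each cluster, and up to 5 called genes per list. Alternatives were DESeq2 1.42.0, other scalings, filters, fits and blocks, a log2 limit of 1 and leaving out each library. The procedure was tested on simulated counts. A single member enters the counts, sums and medians but is not reported by itself here.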

Additional observations from a re-analysis of the deposited data

How the results depend on the processing

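With 2 libraries per group, calls rest on a spread shared over all groups, and members at a few CPM are limited by counting. Leaving out each library in turn gave 7 to 20 called members for WT against no ARID1A with the empty vector and 11 to 18 with EWS-FLI1, 15 to 22 and 13 to 24 for ΔIDR1b against no ARID1A, 2 to 12 and 1 to 9 for ΔIDR1b against WT, 0 to 3 for the average of EWS-FLI1, and 0 to 0 for EWS-FLI1 in single states and for the interactions. With an absolute log2 of at least 1 the counts in these 6 comparisons of states were 2, 4, 6, 8, 0 and 2, and 0 for the average of EWS-FLI1. Among the 21 members with under 10% shared bases they were 9, 8, 10, 11, 5 and 4 by construction of fewer genes. Fitted on the libraries compared alone, ΔIDR1b against WT with EWS-FLI1 gave 2 members, and without scaling the average of EWS-FLI1 gave 0. The cause of these last 2 changes was not tested. Deviations of same-numbered repeats correlated at 0.081 to 0.343 between groups with the same vector and at -0.166 to -0.006 between vectors, and the labels give only the number, so repeats were not treated as paired. A replicate block within each vector gave 1 member for EWS-FLI1 in ΔIDR1b and 3 for the average. The crossed block, chosen after the data were seen, also gave 3 for the average, and blocks moved no other count of members by more than 1.5 times. DESeq2, RLE and upper-quartile factors and both other filters kept every total of both directions within 1.5 times. By direction, DESeq2 and no filter gave 2 rises in place of 4 for ΔIDR1b against no ARID1A with EWS-FLI1, and upper-quartile factors 3 falls in place of 5 between ΔIDR1b and WT under the empty vector. Of 40 named values, 16 were called under every alternative, the limit on fold size apart, 24 were lost under at least 1 and 0 were reversed.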
